A study of Mus musculus with 24 samples.

Results

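The imprinted growth genes are 9 genes of which, in most tissues, the copy inherited from 1 parent is expressed: H19, Igf2, Dlk1, Meg3, Peg3, Plagl1, Mest, Grb10 and Cdkn1c. They were picked by symbol, through the RefSeq accession of each probe, and all 9 had a probe on the array, out of 22911 genes with a symbol and 45622 genes or targets in all. The 9 genes have 17 probes together, and within each tissue a gene was read by its brightest probe. The accessions of those probes are NR_130973 for H19, NM_010514 for Igf2, NM_010052 for Dlk1, NR_027652 for Meg3, NM_008817 for Peg3, NM_009538 for Plagl1, NM_001252292 for Mest, NM_010345 for Grb10 and NM_001161624 for Cdkn1c. Imprinting marks are DNA methylation set in the egg or sperm and kept in every later cell division by proteins such as ZFP57, which binds the motif TGCCGC when it is methylated. Igf2, Dlk1, Peg3, Plagl1 and Mest are expressed from the paternal copy. H19, Meg3, Cdkn1c and, in most tissues, Grb10 are expressed from the maternal copy, and several of them restrain growth. Most members are abundant in the fetus and are turned down in the weeks after birth, which is what they are best known for in liver, lung and kidney, whereas adipose tissue keeps some of them on. The arrays measure the sum of both parental copies, so nothing here tells the alleles apart.

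RNA was measured on 24 Agilent arrays. C57BL/6J males of 10 weeks (10W) and 90 weeks (90W) gave white adipose tissue (WAT), kidney, lung and liver, with 3 mice in each of the 8 groups. The labels name no engineered allele and no treatment, and do not say which fat depot the WAT is. The aged livers are numbered 1, 2 and 4. All 6 arrays of a tissue shared 1 slide, so tissue and slide cannot be told apart, and the number of arrays limits the precision. A level is the log2 of the processed signal minus that array's 75th percentile, so a level of 0 is at that percentile. Levels of different genes come from different probes and were not set against each other. A change is the 90W mean minus the 10W mean on this log2 scale, given with its SE (n = 3 against 3), and its adjusted p is from limma with Benjamini-Hochberg adjustment over all entries of the tissue, called below 0.05. Over all entries the median change was -0.05 in WAT, -0.08 for the lung, -0.20 for the liver and -0.23 for the kidney. In bulk tissue, fewer cells of a type and less RNA per cell cannot be told apart.

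The 5 markers of each labelled tissue were detected in that tissue. The share of probes well above background ranged from 58.6% to 71.1% over the arrays. The first young WAT array stood apart: its 5 epididymis and testis markers summed to 556 (linear scale, 1 being the 75th percentile), and over the other 5 WAT arrays the sum reached at most 5.70. Lcn5, an epididymal lipocalin, had a log2 level of 8.76 on it. WAT results are therefore also given without that array. The first aged lung stood apart as well, with a liver marker sum of 224.7 against 2.93 to 19.5 on the other 5 lungs. In the lung, the summed adipocyte markers lay between 22.2 and 34.2 in the young mice and between 5.76 and 10.6 in the aged mice, and Adipoq was not well above background in 2 of the 3 aged lungs. In the kidney, the summed fibroblast markers lay between 9.35 and 11.5 in the young mice and between 60.5 and 88.4 in the aged mice, whereas those of the adrenal cortex, which lies beside the kidney, were between 0.132 and 0.168 and between 0.130 and 0.150, with Cyp11a1 and Cyp11b2 at background.

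H19 RNA is also the precursor of miR-675, and miR-335 lies within Mest. Neither has a probe here. Their mature sequences are printed because H19 showed the largest change of any member and Mest the largest spread between mice. Capitals mark the seed, bases 2 to 8 (RefSeq, GRCm38.p6).
miR-675-5p: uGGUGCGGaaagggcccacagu
miR-675-3p: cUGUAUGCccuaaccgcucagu
miR-335-5p: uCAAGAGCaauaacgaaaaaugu
miR-335-3p: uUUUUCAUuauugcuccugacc
The miR-675 arms lie on the minus strand at chr7:142577112-142577133 (5p) and chr7:142577078-142577099 (3p), and the miR-335 arms on the plus strand at chr6:30741314-30741336 (5p) and chr6:30741354-30741375 (3p). The 4 seeds differ from one another.

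RefSeq promoter windows, each running from 250 bases before to 50 bases after a transcript start, were given for 7 of the 9 members, in 14 windows. H19 and Cdkn1c had no window in the table. The motif TGCCGC was searched on both strands (GCGGCA on the printed strand is a match on the other). It was found in 6 of the 14 windows, in 5 genes (Igf2, Grb10, Meg3, Mest and Plagl1), and in 11.6% of all 32851 windows. Of the 6, 2 are Mest windows that start at 30737800 and 30737803 on chromosome 6 and hold the same matches. A match is only these letters in this window. Printed below are the windows of Dlk1, Meg3 and Plagl1, the 3 members whose levels were lower by the most in aged WAT, with the motif in capitals where it occurs. They are on the plus strand of GRCm38.p6, at chr12:109452573-109452872 for Dlk1, chr12:109540746-109541045 for the first Meg3 window and chr10:13090582-13090881 for Plagl1.
Dlk1: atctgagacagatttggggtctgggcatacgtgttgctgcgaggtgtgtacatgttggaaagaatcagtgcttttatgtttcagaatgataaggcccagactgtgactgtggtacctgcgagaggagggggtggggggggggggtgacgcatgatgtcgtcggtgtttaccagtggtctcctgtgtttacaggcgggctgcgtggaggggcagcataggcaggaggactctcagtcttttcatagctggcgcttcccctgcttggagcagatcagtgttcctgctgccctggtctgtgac
Meg3: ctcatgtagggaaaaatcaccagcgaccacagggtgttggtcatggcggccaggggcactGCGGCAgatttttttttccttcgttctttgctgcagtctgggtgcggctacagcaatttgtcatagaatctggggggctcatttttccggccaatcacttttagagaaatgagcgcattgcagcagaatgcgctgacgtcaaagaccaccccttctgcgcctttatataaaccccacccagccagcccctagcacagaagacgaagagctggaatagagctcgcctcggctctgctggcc
Plagl1: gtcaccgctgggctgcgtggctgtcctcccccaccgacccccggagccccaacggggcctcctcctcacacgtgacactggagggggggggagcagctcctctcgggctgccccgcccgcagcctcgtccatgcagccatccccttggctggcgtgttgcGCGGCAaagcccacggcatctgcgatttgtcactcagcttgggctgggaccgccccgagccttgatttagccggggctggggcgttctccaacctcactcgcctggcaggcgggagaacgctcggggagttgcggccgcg
CpG, the site of imprinting methylation, occurred 9 times in the Dlk1 window, 13 times in that of Meg3 and 26 times in that of Plagl1, against a median of 7 over all windows. The Plagl1 window held 1 match of the motif, as did that of Meg3, and the Dlk1 window held none.

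At 10 weeks 8 of the 9 members had their highest mean level in WAT, Cdkn1c being the exception. Plagl1, a zinc finger transcription factor, differed in level between all 6 pairs of tissues and ran from -0.67 ± 0.49 (SD, n = 3) in the liver through 1.78 ± 0.03 in the kidney and 3.35 ± 0.19 in the lung to 5.35 ± 0.42 in WAT. Mest, a protein of the alpha/beta hydrolase fold known from growing fat, was 17.4-fold higher in WAT than in the lung (adjusted p = 0.000694), its next tissue. No difference in Mest among lung, liver and kidney passed, although the young kidneys, at -3.42, -3.27 and -2.87, lay below every young lung (-1.59, -1.69 and -1.57) and liver (-1.69, -1.76 and -1.69). The fit takes 1 spread per gene from all 8 groups, and aged WAT, with an SD of 3.08 for Mest, is among them. Meg3, a long noncoding RNA, was 10.0-fold higher in WAT than in the lung (adjusted p = 3.24e-06), where it overlapped with the liver, and was lowest in the kidney.

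Igf2, the fetal insulin-like growth factor, had its highest levels in WAT and lung. Their difference did not pass (adjusted p = 0.182), though the young mice of these tissues did not overlap. Igf2 was 12.9-fold higher in WAT than in the liver (adjusted p = 1.22e-08). Young liver and kidney overlapped in Igf2 (adjusted p = 0.377). Dlk1, a membrane protein that holds back the maturation of fat cells, was highest in WAT, next in the kidney, and overlapped between liver and lung. Peg3, a zinc finger protein, was highest in WAT, without a difference from the kidney that passed the test (adjusted p = 0.0547). H19 was highest in WAT and next in the lung, without overlap of the mice but with a difference that did not pass (adjusted p = 0.193), and was close to background in liver and kidney. The exception, Cdkn1c, is the cyclin-dependent kinase inhibitor p57. Its highest level was in the lung, 1.62-fold above WAT (adjusted p = 0.0448), and liver stood lowest. Grb10, an adaptor that damps signalling from the insulin and IGF receptors, was lowest in the liver, and its levels in lung, kidney and WAT overlapped. Of all entries, 72.4% passed this test between liver and lung, 54.8% between liver and kidney, 66.5% between liver and WAT, 62.7% between lung and kidney, 52.4% between lung and WAT and 55% between kidney and WAT, so a difference of level is common here.

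**Figure D1:**
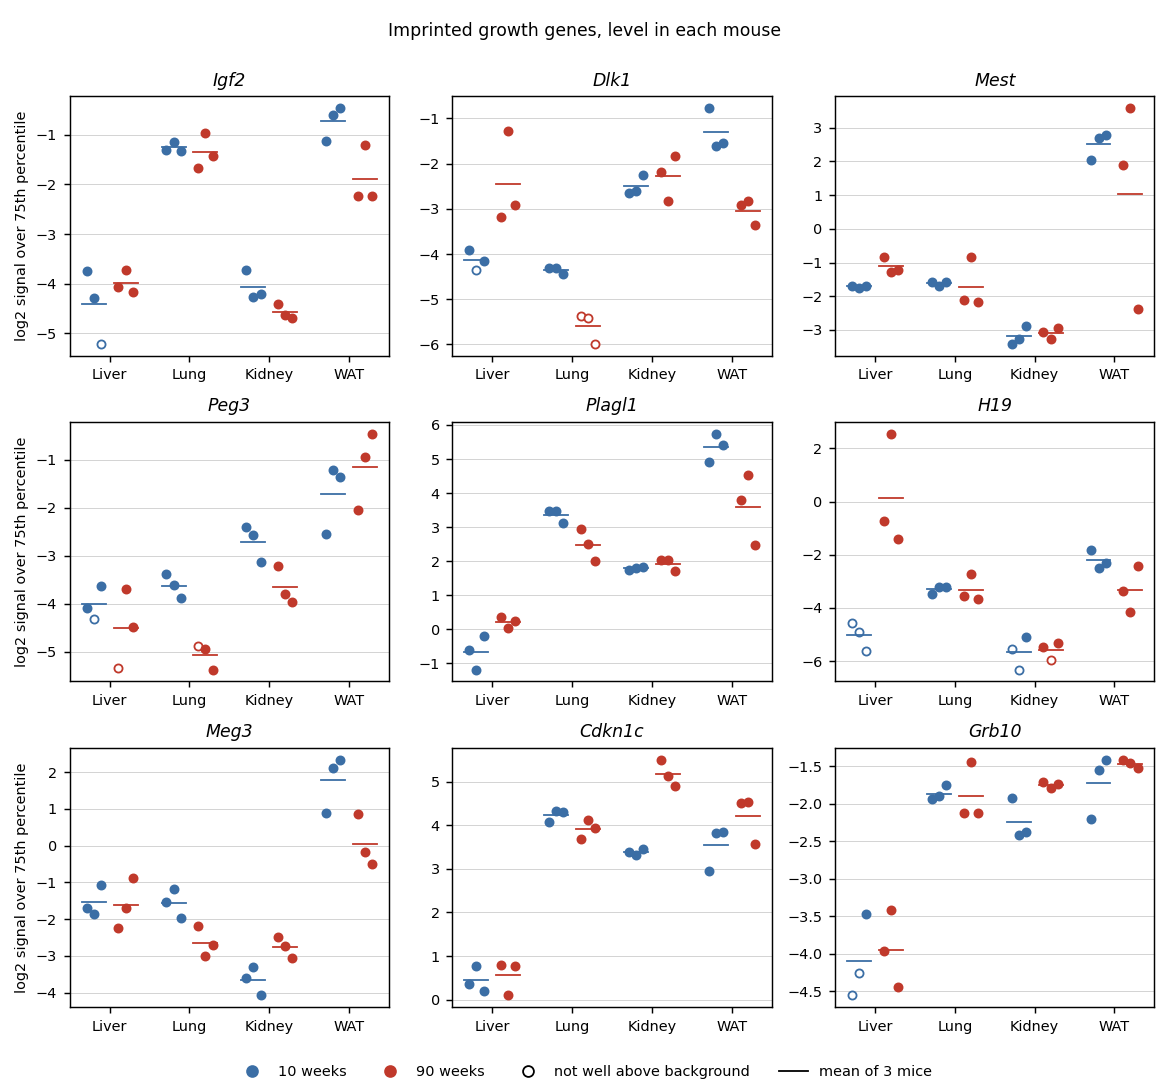
Log2 level of each imprinted growth gene (y axis, processed signal over the 75th percentile of its array) in each mouse, by tissue. Blue points are 10 weeks, red points 90 weeks, open points are not well above background and short lines are means of 3 mice. H19 lies between -5.62 and -4.56 in the young livers and between -1.40 and 2.54 in the aged livers, and Cdkn1c lies between 3.32 and 3.47 in the young kidneys and between 4.90 and 5.51 in the aged kidneys.

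Over the 36 member and tissue comparisons, all of which passed the filter on dim probes, 12 were called: 7 were higher and 5 lower at 90 weeks. H19 in the liver and Dlk1 in the lung passed that filter only through the group in which they were higher. Liver had 4 members that rose (H19, Dlk1, Plagl1 and Mest) and none that fell, where 10.5% of all entries rose and 17% fell. Lung had 2 members that fell (Dlk1 and Peg3) and none that rose, where 2.89% of all entries fell and 2.72% rose. Kidney had 3 that rose (Cdkn1c, Meg3 and Grb10) and 2 that fell (Igf2 and Peg3), where 20.6% of all entries rose and 42.6% fell. That split of all entries turned over with scaling to the spike-in spots (3853 rose and 1182 fell, against 6483 and 13411), under which 1 member, Cdkn1c, was called in the kidney. WAT had 1 that fell (Dlk1) and none that rose, where 0.579% of all entries fell and 2.01% rose.

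The groups did not overlap, with the aged mice higher, for 4 members of the liver (16.8% of all entries), none of the lung (11.6%), 3 of the kidney (23.1%) and none of WAT (13.7%). They did not overlap, with the aged mice lower, for none of the liver (33.1%), 4 of the lung (24.2%), 2 of the kidney (47.6%) and 4 of WAT (15%). The median change of the members was -1.17 for WAT, -0.32 for the lung, 0.14 for the kidney and 0.43 for the liver. No member was called in the same direction in more than 2 tissues.

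**Figure D2:**
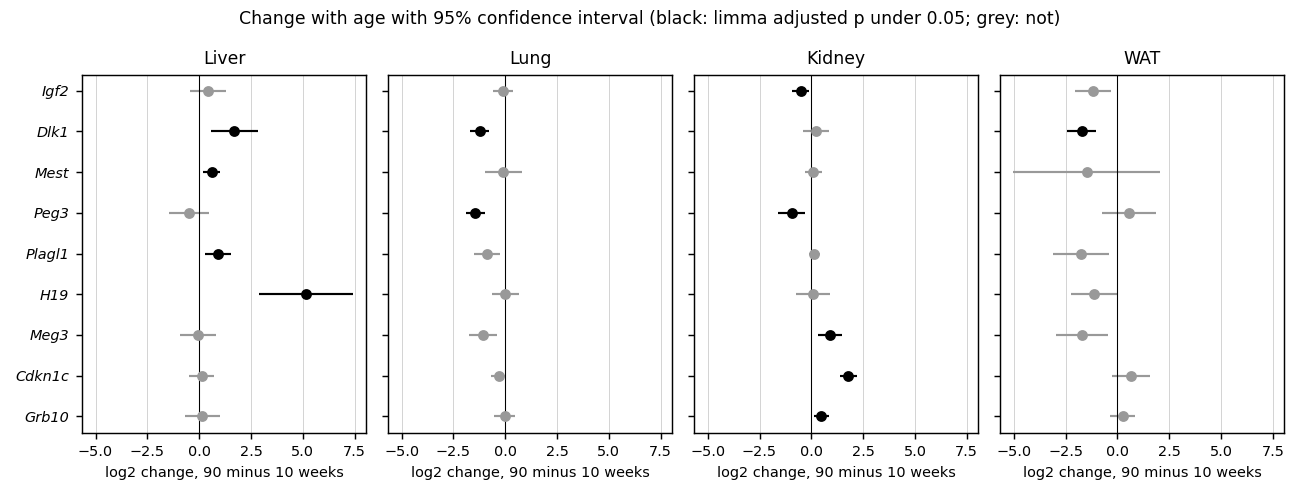
Change of each imprinted growth gene with age (x axis, log2, 90 weeks minus 10 weeks) in the 4 tissues, with the 95% confidence interval of the limma fit of 3 against 3 mice. Black marks an adjusted p under 0.05 and grey the rest. H19 in the liver (5.17) is the change farthest from 0, the interval of Cdkn1c in the kidney runs from 1.40 to 2.19, and the interval of Mest in WAT runs from -5.03 to 2.07.

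H19 was below the call of well above background in every young liver and present in every aged liver. The 3 young livers had log2 levels of -4.56, -4.91 and -5.62, and the 3 aged livers had -0.73, 2.54 and -1.40. The groups did not overlap, and the second aged liver was far above the other two. The log2 change was 5.17 ± 0.96 (SE, limma adjusted p = 0.0127), which amounts to at least 27.5-fold. This is a bound, since the young side was at background. For each young array it takes the higher of the H19 signal and the dimmest signal that counted as well above background. The call held when any 1 of the 6 livers was left out (adjusted p between 0.00319 and 0.0464), and without the second aged liver the change was 3.96. With normexp background correction the log2 change was 2.51 (limma adjusted p = 0.0376), which is below the bound, so the bound holds for the processed signals alone. In all, the call held in 13 of 15 alternatives. Among them, averaging probes and dropping the filter left the change of this 1 probe as it was. The call was lost with the replicate number as a block and in the methods' t-test. That block draws only on the livers numbered 1 and 2, the numbers that both ages share.

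A further probe that the files name H19, with no accession, was dimmer in the aged livers. It had log2 levels of -3.56, -4.87 and -5.89 in the young livers and -3.61, -1.07 and -4.27 in the aged livers, of which 1 young and all 3 aged values were well above background. These groups overlapped, and the change of 1.79 ± 0.91 (SE) did not pass (limma adjusted p = 0.171). The probes therefore differ in size of change and in call, though the second aged liver was the highest on both. The summed proliferation markers were 1.69 to 2.16 in the young livers and were 5.70, 21.2 and 4.72 in the aged livers, in the same order of mice, so they too were highest in the second. The summed fibroblast markers lay between 6.63 and 8.93 in the young and between 14.7 and 19.7 in the aged livers. Leukocyte markers lay between 12.1 and 13.5 and between 17.9 and 30.7. Of the 5 leukocyte markers, 2 were called higher and 3 were not called. Among the latter, 1 was lower in every aged liver than in every young one. The liver's own markers summed to 3693 to 4156 in the young and to 2511 to 2855 in the aged mice. The part of these markers in the liver results of H19, Dlk1, Plagl1 and Mest was not tested.

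In the other tissues H19 gave no call. The young lungs had -3.46, -3.23 and -3.21 and the aged lungs -3.54, -2.71 and -3.67, a log2 change of -0.01 ± 0.27 (SE). Kidney levels lay between -6.32 and -5.10 in the young and between -5.96 and -5.32 in the aged mice, with 1 of 3 and 2 of 3 arrays well above background. In WAT the young mice had -1.82, -2.50 and -2.29 and the aged mice -3.34, -4.16 and -2.43. Those groups overlapped by 1 mouse, with a log2 change of -1.11 ± 0.46 (SE, limma adjusted p = 0.262).

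Igf2, which lies next to H19 and shares enhancers with it, gave no call in the liver. The young livers had -3.74, -4.29 and -5.21, the last not well above background, and the aged livers had -4.07, -3.73 and -4.16. These overlapped, with a log2 change of 0.43 ± 0.37 (SE, limma adjusted p = 0.393). In the kidney Igf2 went from -3.72, -4.28 and -4.21 to -4.41, -4.63 and -4.70, and every aged value was below every young one. The change of -0.51 ± 0.17 (SE, limma adjusted p = 0.0392) passed, but the second Igf2 probe had a change of -0.11 in the kidney (limma adjusted p = 0.664) and the call was lost in 9 of 15 alternatives. Without the first or the third young kidney or the second or the third aged kidney the adjusted p was 0.0610, 0.0520, 0.103 and 0.107.

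In WAT Igf2 was -1.12, -0.60 and -0.46 in the young and -2.24, -1.21 and -2.24 in the aged mice. The groups did not overlap, and the log2 change of -1.17 ± 0.35 (SE, limma adjusted p = 0.155) did not pass. The second probe gave a change of -1.38 (limma adjusted p = 0.141). Without the first young array it was -1.36 by the brighter probe (limma adjusted p = 0.140). In the lung Igf2 lay between -1.32 and -1.14 in the young and between -1.66 and -0.95 in the aged mice.

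Dlk1 was the member with calls in both directions. In the liver it went from -3.91, -4.36 and -4.16, the second not well above background, to -3.18, -1.28 and -2.92, and the groups did not overlap. The second aged liver was again the highest. Dlk1 thus had a log2 change of 1.68 ± 0.48 (SE, limma adjusted p = 0.0407), and of 1.095 (limma adjusted p = 0.0204) without that mouse. Leaving out any 1 young liver, or the aged liver numbered 4, lost the call (adjusted p = 0.0904, 0.120, 0.0890 and 0.0505). The second Dlk1 probe had a change of 0.88 (limma adjusted p = 0.358), and with normexp the brighter one had 0.39 (limma adjusted p = 0.318).

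In the lung Dlk1 fell from -4.32, -4.30 and -4.44 to -5.38, -5.41 and -5.99. No aged lung was well above background. By the group means of the processed signals, Dlk1 was therefore at least 2.03-fold lower (limma adjusted p = 0.0240 for the fitted change). This bound does not cover the spread between mice. Dlk1 entered the test only through the young lungs, and with no filter the adjusted p was 0.0606. With normexp the change was -0.18 (limma adjusted p = 0.601). That is a smaller fall than the bound, so the bound holds for the processed signals alone. The second probe was well above background on 1 lung array of each age and was not tested. Without any 1 young lung the call was lost (adjusted p between 0.0830 and 0.113). Those fits called few lung entries of any kind: 1, 16 and 142 higher and 1, 8 and 76 lower, against 825 and 875 with all lungs. In WAT, Dlk1 fell from -0.77, -1.62 and -1.54 to -2.92, -2.82 and -3.37, and no aged value reached a young one. The log2 change was -1.73 ± 0.29 (SE, limma adjusted p = 0.0440). Without the first young array, which carries epididymal RNA, it was -1.46 (limma adjusted p = 0.0513), and leaving out any 1 of the 6 arrays lost the call (up to 0.147). Those fits called 211 to 478 of all WAT entries higher and 25 to 124 lower, against 605 and 174 with all arrays. With normexp the Dlk1 change was -1.17 (limma adjusted p = 0.0550). The second probe had a change of -1.47 in WAT (limma adjusted p = 0.0729). The summed leukocyte markers lay between 19.4 and 33.5 in young WAT and between 45.5 and 83.8 in aged WAT, and their part was not tested. In the kidney Dlk1 lay between -2.65 and -2.26 in the young and between -2.83 and -1.83 in the aged mice, with no call.

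Meg3 was called in the kidney alone. It rose there from -3.61, -3.29 and -4.07 to -2.47, -2.72 and -3.07, and all aged kidneys were above all young ones. The log2 change was 0.90 ± 0.24 (SE, limma adjusted p = 0.0169), and it was lost without the first or the second aged kidney (adjusted p = 0.0558 and 0.0502). With normexp it was 0.28 (limma adjusted p = 0.0310). Fibroblast markers were higher in the same aged kidneys, as given above, and their part was not tested. In WAT Meg3 was 0.88, 2.10 and 2.34 in the young and 0.85, -0.19 and -0.51 in the aged mice. The groups stood apart by a narrow margin, at the first young array, and the change of -1.72 ± 0.51 (SE, limma adjusted p = 0.152) did not pass. Without that array it was -2.17 (limma adjusted p = 0.0867).

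Of the other 3 Meg3 probes, those 2 that were tested in WAT had changes of -1.86 and -1.81 (limma adjusted p = 0.126 and 0.109). In the lung Meg3 went from -1.52, -1.17 and -1.96 to -2.19, -3.004 and -2.71, again without overlap, a change of -1.09 ± 0.28 (SE, limma adjusted p = 0.0811). In the liver its log2 change was -0.06 ± 0.37 (SE).

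Dlk1 and Meg3 share an imprinted region with Rian and Mirg, noncoding RNAs that are hosts of small RNAs. These were singled out after their values were seen. Rian fell in the lung by 0.87 (limma adjusted p = 0.0289) and Mirg rose in the kidney, where no young array was well above background, at least 1.98-fold (limma adjusted p = 0.0185). Mirg thus passed the filter on dim probes there only through the aged mice, in which it was higher. In WAT Rian had a change of -1.67 and Mirg of -1.72, and neither passed (limma adjusted p = 0.175 and 0.130). Mirg was -2.63, -1.93 and -1.38 in young and -3.06, -3.53 and -4.52 in aged WAT, without overlap. Mirg in the liver was -1.51 in the second aged mouse and at most -2.81 in the other 5 mice.

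**Figure D3:**
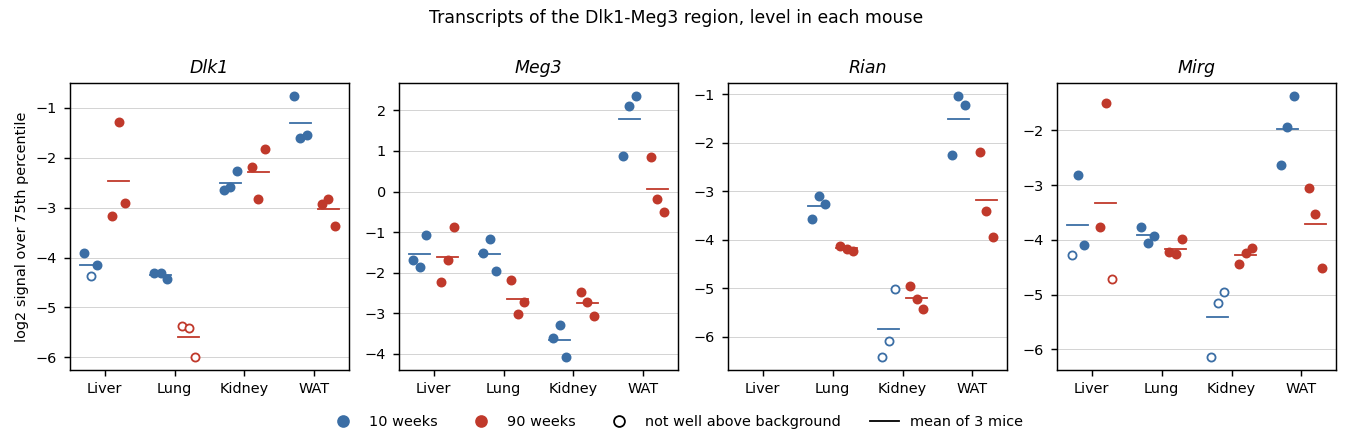
Log2 level of 4 transcripts of the Dlk1-Meg3 region (y axis, processed signal over the 75th percentile of its array) in each mouse, by tissue, with blue points for 10 weeks, red points for 90 weeks, open points not well above background and lines for means of 3 mice. Dlk1, Meg3 and Mirg have every aged WAT value below every young one, Rian overlaps there by 1 mouse, and Rian has no points in the liver because it did not pass the filter.

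Peg3 fell in lung and kidney. The lungs went from -3.39, -3.61 and -3.88 to -4.88, -4.95 and -5.37, the first aged value not well above background, and the groups did not overlap. Its log2 change was -1.44 ± 0.19 (SE, limma adjusted p = 0.0185), 2.72-fold lower. With normexp it was -0.38 (limma adjusted p = 0.316). The call was also lost without any 1 of the young lungs (adjusted p = 0.0875, 0.0888 and 0.0532), in fits that called few lung entries of any kind, as given for Dlk1. The adipocyte and fibroblast markers were lower in the same aged lungs (fibroblast sum 61.5 to 76.2 in the young and 19.7 to 38.3 in the aged), and their part in the lung results of Peg3 and Dlk1 was not tested.

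The kidneys had Peg3 levels of -2.41, -2.57 and -3.13 at 10 weeks and -3.22, -3.79 and -3.95 at 90 weeks. These groups did not overlap, and the log2 change of -0.95 ± 0.26 (SE, limma adjusted p = 0.0191) passed, though not without the first or the second young or the second or the third aged kidney (adjusted p = 0.0577, 0.0567, 0.0604 and 0.0584). In WAT Peg3 did not share the direction of Dlk1 or Meg3, with -2.54, -1.21 and -1.37 in the young and -2.05, -0.93 and -0.46 in the aged mice, a log2 change of 0.55 ± 0.53 (SE) without a call. Without the first young array that change was 0.14. Liver levels overlapped, with a change of -0.50 ± 0.41 (SE).

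Plagl1 had its largest difference in WAT, where it is also highest. The young WAT had 4.90, 5.74 and 5.42 and the aged WAT 3.79, 4.54 and 2.46, so the groups did not overlap and the aged mice spread more widely. The log2 change of -1.76 ± 0.55 (SE, limma adjusted p = 0.165) did not pass, and it was -1.98 (limma adjusted p = 0.170) without the first young array. The second Plagl1 probe had a change of -0.85 (limma adjusted p = 0.169). In the lung the levels were 3.47, 3.46 and 3.13 at 10 weeks and 2.95, 2.50 and 1.99 at 90 weeks. They did not overlap either, with a change of -0.87 ± 0.25 (SE, limma adjusted p = 0.1005). Without the first aged lung, the array with liver transcripts, the change was -1.11 and was called (limma adjusted p = 0.0495), while Peg3 and Dlk1 kept their lung calls (limma adjusted p = 0.0314 and 0.0337). The second Plagl1 probe, well above background on every lung, had a change of -0.32 ± 0.11 over all the lungs (SE, limma adjusted p = 0.136).

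In the liver the sign of the Plagl1 difference depended on the probe. By the brighter probe it rose from -0.62, -1.19 and -0.20 to 0.37, 0.03 and 0.24, without overlap, a log2 change of 0.89 ± 0.27 (SE, limma adjusted p = 0.0474). By the second probe, well above background on all 6 livers, it had a change of -0.57 ± 0.18 (SE, limma adjusted p = 0.0544). The call was kept in 2 of 15 alternatives, and was lost on leaving out any liver but the third young one (adjusted p between 0.0676 and 0.124). In the kidney Plagl1 stayed between 1.72 and 2.03 on all 6 arrays.

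Mest differed most between mice of the same group. Aged WAT had 1.89, 3.58 and -2.39, against 2.03, 2.70 and 2.78 in young WAT. The third aged mouse was thus far below every other mouse, and the second was above every young mouse. The Mest log2 change was -1.48 ± 1.46 (SE, limma adjusted p = 0.614), and it turned to 0.23 (limma adjusted p = 0.854) without the third aged mouse. The second Mest probe gave -1.37 (limma adjusted p = 0.619). Fibroblast and adipose progenitor markers were at their lowest over all WAT arrays in that mouse, with sums of 65.2 and 27.7. The adipose progenitor sum was nearly as low, at 29.5, on the first young array, where Mest was 2.03. The part of these markers was not tested.

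In the liver Mest rose from -1.69, -1.76 and -1.69 to -0.84, -1.27 and -1.22, with no overlap. Its log2 change of 0.60 ± 0.17 (SE, limma adjusted p = 0.0422) was lost when any 1 liver was left out (adjusted p between 0.0513 and 0.134). It shrank to 0.06 (limma adjusted p = 0.931) with scaling to the spike-in spots and was 0.33 (limma adjusted p = 0.0623) with normexp. In lung and kidney Mest had changes of -0.10 ± 0.37 and 0.09 ± 0.17 (SE), without calls.

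Cdkn1c, a brake on the cell cycle, had the clearest change in the kidney. The young kidneys had 3.39, 3.32 and 3.47 and the aged kidneys 5.51, 5.14 and 4.90. Every aged kidney was above every young one by more than the spread of either group. Cdkn1c thus rose by 1.79 ± 0.16 on the log2 scale (SE, limma adjusted p = 0.00037), 3.46-fold, with a 95% confidence interval on the log2 scale from 1.40 to 2.19. It was called in all 15 alternatives, with changes between 1.63 and 2.26. Cdkn1c has 1 probe, so averaging probes and dropping the filter could not alter its change. No second probe can be set against it. Over the same kidneys the summed proliferation markers lay between 1.28 and 1.89 in the young and between 6.66 and 7.45 in the aged mice. The leukocyte markers lay between 16.5 and 25.0 and between 33.0 and 47.4. Their part was not tested.

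Elsewhere Cdkn1c gave no call. WAT had 2.95, 3.83 and 3.86 at 10 weeks and 4.51, 4.53 and 3.57 at 90 weeks, with overlap, a log2 change of 0.66 ± 0.38 (SE, limma adjusted p = 0.395). The lung change was -0.32 ± 0.15 and the liver change 0.11 ± 0.26 (SE). Grb10 rose in the kidney from -1.93, -2.42 and -2.37 to -1.72, -1.80 and -1.74, without overlap. Its log2 change was 0.49 ± 0.14 (SE, limma adjusted p = 0.0255), the second probe had a change of 0.02 (limma adjusted p = 0.920), and the call was lost without any kidney but the first young one (adjusted p between 0.0590 and 0.0752). With normexp it was 0.16 (limma adjusted p = 0.149). In the other tissues Grb10 had changes of -0.03 to 0.26, with no call and with groups that overlapped.

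A fit over the 24 arrays tested if the age change of a member differed between tissues. It differed for 5 of the 9 members, H19, Dlk1, Meg3, Plagl1 and Cdkn1c, where 31.2% of all 34169 entries passed this F test. Mest and Grb10 gave adjusted p = 0.515 and 0.704, and Igf2 and Peg3 0.0524 and 0.0680. For Dlk1, the liver change exceeded that of WAT by 3.41 ± 0.53 (SE, limma adjusted p = 0.000627) and the fitted lung change by 2.92 ± 0.53 (SE, limma adjusted p = 0.00209), of which the aged lungs were at background. For Meg3, the kidney change exceeded that of WAT by 2.62 ± 0.59 (SE, limma adjusted p = 0.00536), and the lung change minus the kidney change was -1.99 (limma adjusted p = 0.0257). Plagl1 in the liver exceeded WAT by 2.64 ± 0.53 (SE, limma adjusted p = 0.00362).

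The H19 change in the liver exceeded that in each of the other tissues, with fitted differences of 5.17 from the lung, 5.09 from the kidney and 6.28 from WAT (limma adjusted p = 0.00266, 0.00256 and 0.000627). The young livers and 2 of the 3 young kidneys were at background for H19, so the sizes of these differences are not firm. The Cdkn1c change in the kidney exceeded that in WAT by 1.13 (limma adjusted p = 0.0495), and the lung and liver changes minus the kidney change were -2.11 and -1.68 (limma adjusted p = 0.00135 and 0.0108). Igf2 in the liver exceeded WAT by 1.60 ± 0.45 (SE, limma adjusted p = 0.0250). By pair of tissues, liver and WAT differed for 4 of the 9 members (H19, Igf2, Dlk1 and Plagl1), where 14.7% of all entries did, and kidney and WAT for 4 (Dlk1, Meg3, Plagl1 and Cdkn1c), where 20.5% did. Liver and lung differed for 3 members (12.5%), liver and kidney for 2 (8.63%) and lung and kidney for 2 (18.8%). In lung and WAT limma called none (2.89%), and 3 members (Igf2, Peg3 and Cdkn1c) had an unadjusted p under 0.05. The share of all entries with such a p was not counted for this pair, so these 3 cannot be set against it. Whether the same mouse gave several tissues is not known, and the fit took all arrays as independent.

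The genes that ran most like each member over the 24 arrays, with the tissue mean removed, are given as a description over 19060 genes with a symbol. The arrays of a tissue share a slide, and part of every r comes from the age groups. H19 ran closest to Cyp3a44, a cytochrome P450 of the liver, with r = 0.94, then Mvb12b and Dach1 at 0.93. Dlk1 ran closest to Ddr1, a collagen receptor, at 0.89, followed by Plpp2 and Scd2. Meg3 had Aspn, a matrix proteoglycan, at 0.85, then Fcrls and Gm3458. Igf2 had Trabd2b at 0.86, Cachd1 and Col23a1, and Peg3 had Sctr, the secretin receptor, at 0.83, Sdc4 and Taf8. Plagl1 ran with D430019H16Rik, Limch1 and Prkag2 at 0.92, 0.91 and 0.91. Mest ran with Npr3, the clearance receptor for natriuretic peptides, at 0.91, then Gm5144 and Gm5627. Grb10 had Zc3h13 at 0.84, Akr1cl and 0610010F05Rik, and Cdkn1c had Cd99 at 0.96, Iglon5 and Pth2. Among the members themselves, H19 and Dlk1 had r = 0.73, Plagl1 and Mest 0.72, and Meg3 and Plagl1 0.70, whereas H19 and its neighbour Igf2 had 0.37.

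Of 57 other imprinted genes on the list, 55 had a probe. The list goes by symbol, and the arrays cannot show whether a gene is imprinted in the tissue measured. Liver had 5 that rose and 3 that fell of 40 tested, lung had 5 that fell of 47, and kidney had 18 that rose and 20 that fell of 48. Over all entries 10.5% rose and 17% fell for liver, 2.89% fell for lung, and 20.6% rose and 42.6% fell for kidney, so the number that fell in the kidney is at that share. For WAT limma called none of 48, with 3 higher and 8 lower at an unadjusted p under 0.05, which 19.3% of all entries had. In the same order their median changes were -0.05, -0.24, -0.15 and -0.18. Nnat, neuronatin, rose in the kidney by 2.74 (limma adjusted p = 0.0147) and fell in the lung by 2.56 (limma adjusted p = 0.0157). In the kidney 1 of 3 young arrays was well above background for Nnat, so the size of that change is not firm. Ndn, necdin, a growth suppressor, rose in the kidney by 2.63 (limma adjusted p = 0.000118), and Calcr, the calcitonin receptor, and Begain by 2.55 and 2.50 (limma adjusted p = 0.000553 and 0.0008). In the liver Ampd3, Asb4 and Tspan32 rose by 2.19, 1.80 and 1.66 (limma adjusted p = 0.00525, 0.00565 and 0.0170), and Ddc, the aromatic amino acid decarboxylase, fell by 2.32 (limma adjusted p = 0.0282). Ddc also fell in the lung, by 1.73 (limma adjusted p = 0.0188), as did Slc22a3, an organic cation transporter, by 1.39 (limma adjusted p = 0.0328).

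The next list holds 8 receptors, adaptors and mRNA-binding proteins of IGF2. Kidney had 1 that rose and 6 that fell of 8, lung had 2 that fell of 8, and liver had 1 that fell of 7, against 20.6% and 42.6%, 2.89% and 17% over all entries. For WAT limma called none of 7, with 1 at an unadjusted p under 0.05, which 19.3% of all entries had. In the lung Igf2bp1, which binds Igf2 mRNA, fell by 1.99 (limma adjusted p = 0.0183) and Irs1, an adaptor of the insulin and IGF receptors, by 1.04 (limma adjusted p = 0.0330). Of the 14 genes of imprint maintenance, the kidney had 7 that rose and 2 that fell, the liver 3 that rose and 1 that fell of 13, the lung 1 that rose of 13, and WAT 1 that rose. Over all entries those shares were 20.6% and 42.6%, 10.5% and 17%, 2.72%, and 2.01%. Uhrf1, which brings the maintenance methyltransferase to replicating DNA, rose in the liver by 3.21 (limma adjusted p = 0.00528) and in the kidney by 2.73 (limma adjusted p = 3e-05), along with the proliferation markers of those tissues, and the part of dividing cells was not tested. In WAT Dppa3, which shields methylation in the zygote, rose by 4.52 (limma adjusted p = 0.0297), with 1 of 3 young arrays well above background.

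**Figure D4:**
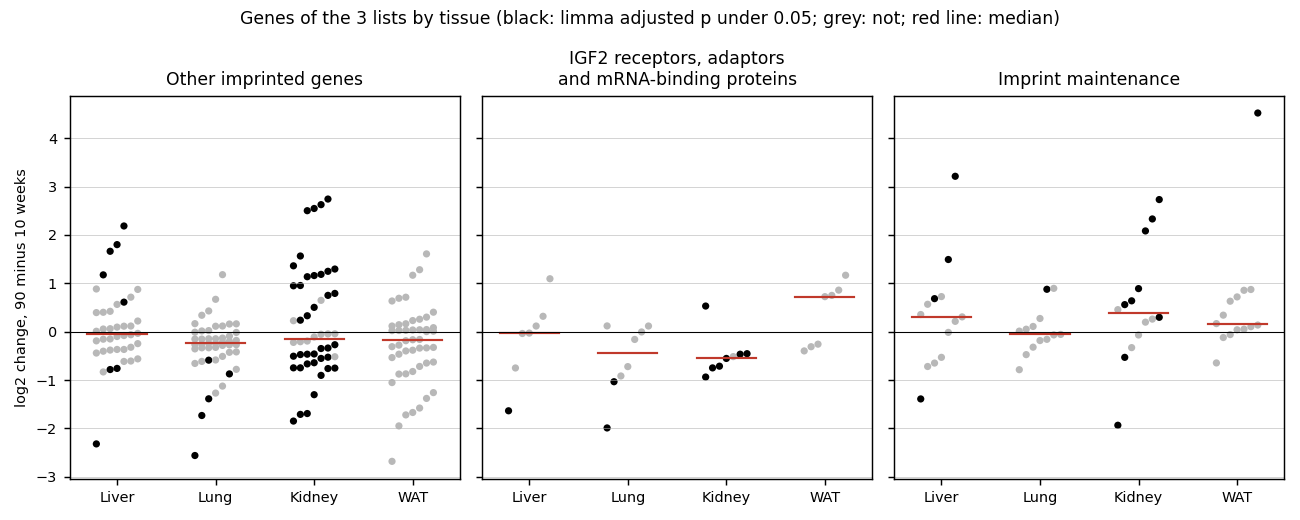
Change with age (y axis, log2, 90 weeks minus 10 weeks) of each tested gene of the 3 further lists in the 4 tissues. Black points have a limma adjusted p under 0.05, grey points do not, and red lines are medians. The kidney has called genes on both sides of 0 in each list, and the single called WAT gene is Dppa3 at 4.52.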

How the data were processed

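The authors extracted total RNA, labelled it with Cy3 and hybridized it to Agilent arrays. Feature Extraction 11.0.1.1, as the submitters' processing notes give it, wrote the deposited intensity values, a background-subtracted processed signal in arbitrary units for each of 62976 spots, and whether a spot is well above background. The design is a mouse one on build mm9, while the methods name a human kit. Probe accessions were matched without version to RefSeq (GRCm38.p6): 32994 of 56605 probes (58.3%) matched. Another 7 probes, 1 of them for H19, carry a matched symbol as their name and were kept apart. Spots flagged as outliers or uneven were left out (1841 in all), and none was saturated.

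The log2 signal minus each array's 75th percentile was taken with no floor. A probe was kept where 3 or more of a tissue's 6 arrays had it well above background, and the brightest stood for its gene. This left 31506 entries for kidney, 30328 for lung, 30063 for WAT and 27908 for liver. limma 3.58.1 (lmFit and eBayes, R 4.3.3) compared 90W with 10W within each tissue and, in a fit of 24 arrays with 8 groups, between tissues, and Benjamini-Hochberg adjustment ran over all entries. Simulated arrays with 200 changed genes were used to test the code. Where all arrays of a group were not well above background, the fold is a bound. Such a bound is on the group means of the processed signals and does not cover the spread between mice. The labels do not say if a mouse gave several tissues. Within a tissue, young and aged samples sharing a replicate number gave correlations of deviations between -0.17 and 0.18, so no pairing of ages was used. That check sets young against aged mice within a tissue, so it cannot show if a mouse gave several tissues. A limma p-value sets a mean difference against the spread between these arrays, which eBayes moderates with that of all entries.

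All 9 members are named in every tissue. From each list, at most 5 genes per tissue with the largest change among those called without overlap, and for each member the 3 genes of highest r. Members and lists were chosen with earlier results of these data known. The alternatives were normexp on the median signals (offset 50), quantile normalization, scaling to the 350 spike-in spots, centring on the median, no filter, averaging the probes of each gene, a joint fit over the arrays of all tissues, a replicate block, the methods' t-test and leaving out each mouse. Cell type markers were read as the sum of linear levels over the 5 genes of a list. A further table of the whole series was not used here.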

Additional observations from a re-analysis of the deposited data

Results flagged for a closer look

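The change between 10 and 90 weeks differed among the 4 tissues for 5 members, by limma's F test in the fit of all 24 arrays with Benjamini-Hochberg adjustment. H19 had an adjusted p of 0.000557, with log2 changes of -1.11 in WAT, 0.08 for kidney, -0.01 for lung and 5.17 for liver, where the young mice were at background. Dlk1 had an adjusted p of 0.000512, with -1.73, 0.22, -1.24 and 1.68 in the same order, with the aged lungs at background. Cdkn1c had an adjusted p of 0.0031, with 0.66, 1.79, -0.32 and 0.11. These 3 members passed in all 10 alternatives of this test. Plagl1 had an adjusted p of 0.0049, with -1.76, 0.14, -0.87 and 0.89, and passed in 8 of 10. Meg3 had an adjusted p of 0.0108, with -1.72, 0.90, -1.09 and -0.06, and passed in 6 of 10.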

How the results depend on the processing

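The number of members called depended on the processing. Against 4 in the liver it was 2 with normexp, with no filter, with the mean of probes and with all arrays in 1 fit, 1 with spike-in scaling, and between 1 and 2 without 1 mouse. Limma with the replicate block and the methods' t-test called 0 there, with 5 and 3 members at an unadjusted p under 0.05. Of all 27908 liver entries, 9995 and 10631 had such a p. Against 2 in the lung it was 1 with no filter, 4 with spike-in scaling and between 0 and 3 without 1 mouse (0 without any 1 young lung). It was 0 with normexp, all arrays in 1 fit, the block and the t-test, with 2, 4, 5 and 4 members at an unadjusted p under 0.05. Of all 30328 lung entries, 5995, 5021, 7007 and 7336 had such a p. Against 5 in the kidney it was 1 with spike-in scaling, with all arrays in 1 fit and with the t-test, 3 with the mean of probes, and between 1 and 3 without 1 mouse (1 without the second aged kidney). Against 1 in WAT it was 4 with all arrays in 1 fit and 0 without any 1 mouse. It was 0 with normexp, quantile normalization, spike-in scaling, no filter, the block and the t-test, with 4, 5, 3, 4, 5 and 3 members at an unadjusted p under 0.05. Over all WAT entries, 5626, 5677, 4517, 6658, 5382 and 5314 had such a p, of 45622 with no filter and of 30063 otherwise. The replicate block kept the count of 5 in the kidney and of 5 for differences between tissues. That last count was 3 without replicate 2 of the 10W groups, and between 3 and 6 over all left-out mice. H19 in the liver had adjusted p = 0.0574 with the limma replicate block and 0.0730 with the t-test. In the liver the block draws the age difference only from the mice numbered 1 and 2. Young liver 3 and aged liver 4 share no number with the other age. The cause of the changed counts was not tested.

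Some signs turned. With normexp these were Igf2 and Grb10 of the liver (-0.16 and -0.28), H19 and Grb10 of the lung (0.0248 and 0.0366), and H19, Dlk1 and Mest of the kidney (-0.35, -0.0127 and -0.10), H19 with a limma adjusted p of 0.0216. With spike-in scaling they were Igf2, Grb10 and Cdkn1c of the liver (-0.11, -0.39 and -0.42), with the block Cdkn1c of the liver (-0.12), with median centring H19 and Mest of the kidney (-0.0295 and -0.0218), and with the mean of probes Mest of the kidney (-0.21). Leaving out 1 mouse turned the sign in these ranges. For the liver they were Meg3 -0.42 to 0.26, Grb10 -0.11 to 0.46 and Cdkn1c -0.00969 to 0.35. For the lung they were H19 -0.31 to 0.17, Igf2 -0.29 to 0.0617, Mest -0.54 to 0.14 and Grb10 -0.26 to 0.0829. For the kidney they were H19 -0.25 to 0.36, Dlk1 -0.00483 to 0.49 and Mest -0.0289 to 0.24. For WAT it was Mest, -2.76 to 0.23.

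Over all entries, spike-in scaling moved the median change to 0.19 in WAT, -0.04 for kidney, -0.38 for lung and -0.74 for liver. It gave 1133 higher and 76 lower in WAT (605 and 174 otherwise), 702 and 3584 for lung (825 and 875), and 1062 and 3633 for liver (2928 and 4749), where normexp gave 2385 and 7551. Without 1 mouse, the calls over all entries were 1497 to 2716 higher and 996 to 4429 lower for liver. For lung they were 1 to 1088 and 1 to 905, and for kidney 5555 to 6290 and 11228 to 12958 (6483 and 13411 otherwise). Signal close to background limits H19, Igf2, Dlk1, Grb10 and Peg3 in the liver, Dlk1 and Peg3 in the aged lung, and H19 in the kidney.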
